A study of Rattus norvegicus with 36 samples.

Results

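The aortic transcriptomes of 2 congenic rat strains, S2Ba and S2Bb, were compared directly on a normal salt diet. Both strains have the genome of the Dahl salt-sensitive (SS) rat except for a piece of chromosome 2 taken from the Brown Norway (BN) rat, which is the distal portion in S2Ba and a middle segment in S2Bb. The comparison used all 6 S2Ba libraries and all 6 S2Bb libraries on normal salt, which are 12 of the 34 libraries of the series with values, and no library of the SS strain itself. All rats were male, entered the study at 4 to 6 weeks of age and stayed on their diet until 12 to 13 weeks, when total RNA of a segment of the thoracic descending aorta was sequenced. The diet with 4% NaCl, given to other rats of the same strains (5 S2Ba and 6 S2Bb libraries), served to look at the same genes a second time. Where the BN pieces begin and end is not given in the sources used here. Nothing in the labels states that the samples are separate animals, and the spread behind each p-value may therefore be partly technical.

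The SS rat is an inbred model in which a high salt diet raises blood pressure and damages vessels. A congenic strain carries a chromosome piece of a donor strain on an otherwise constant background, so 2 strains with different donor pieces can be compared on a shared background. The wall of the thoracic aorta is mostly smooth muscle. It responds to angiotensin II and endothelin, which contract it, and to nitric oxide, which relaxes it through cGMP.

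Values are the deposited normalised read values, which are reads of a library divided by its size factor. Depth was 10315509 to 14408310 reads in S2Ba and 12206970 to 15168833 reads in S2Bb. The libraries had the markers of their tissue: all 22 smooth muscle contractile genes listed were measured, and Acta2, smooth muscle actin, averaged 5244 in S2Ba and 4016 in S2Bb, and Myh11, smooth muscle myosin, 9962 in S2Ba and 11178 in S2Bb. Fat differed between libraries: the summed level of 16 genes of fatty acid synthesis and lipid metabolism was 11280 in S2Ba replicate 1, 570.5 to 1988 in the other 5 S2Ba libraries and 811.9 to 1776 in S2Bb, and that of 10 white adipocyte markers was 2125 in S2Ba replicate 1, 212.5 to 784.2 in the other S2Ba libraries and 293.2 to 766.9 in S2Bb. Summed over 13 cardiac muscle markers, of which Myl2, Myl7, Nppa and Nppb were at 0 in all 12 libraries, S2Ba libraries lay between 191.2 and 302.6 and S2Bb libraries between 155.8 and 183.3. The part of these cells in the results was not tested. In a piece of tissue, fewer cells of a type and less RNA per cell cannot be told apart.

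On normal salt the aorta of S2Ba rats held less RNA than that of S2Bb rats of Kcnab1, a potassium channel subunit (3.88 ± 0.662 in S2Ba and 49.7 ± 5.44 in S2Bb), of Enpep, which degrades angiotensin II (16.01 ± 4.401 in S2Ba and 53.1 ± 8.97 in S2Bb), and of Ddah1, which protects nitric oxide synthesis (26.5 ± 9.89 in S2Ba and 70.6 ± 6.92 in S2Bb; all SD, n = 6 each). It held more of Agtr1b, an angiotensin II receptor (14.8 ± 2.78 in S2Ba and 2.64 ± 0.905 in S2Bb), and of Spp1, the matrix protein osteopontin (931 ± 137 in S2Ba and 532 ± 84.96 in S2Bb). No read of Adh7, an alcohol dehydrogenase, was found in S2Ba, against 200 reads in S2Bb. The genes that differed were denser on chromosome 2 than on any other chromosome.

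A total of 13389 genes averaged 0.5 or more in these 12 libraries and were tested with limma on log2(value + 0.5), with p-values adjusted over all of them by the Benjamini-Hochberg method. At an adjusted p under 0.05, 148 genes differed between the strains, which is 1.11% of the genes tested: 76 (0.568%) were higher in S2Ba and 72 (0.538%) were lower. Of the 148 genes, 43 (0.321% of the genes tested) differed at least 2-fold on the fitted scale. At an unadjusted p under 0.05 there were 2031 genes (15.2%). In 116 of the 148 no S2Ba library overlapped the S2Bb libraries, against 287 such genes (2.14%) among all genes tested. The median log2 fold change over all genes, S2Ba over S2Bb, was -0.000663.

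The count changed with the libraries used and with a covariate that varied between libraries and partly with strain. The first principal component of the circadian clock genes ran from -1.54 to 2.65 in S2Ba, with a median of 1.36, and from -2.55 to 0.937 in S2Bb, with a median of -1.66. With this component as a covariate 16 genes were called, 14 of them among the 148, and 8 lay on chromosome 2. Since the component went partly with strain, such a fit takes up strain differences too. The part of each in the lower count cannot be told apart. Leaving out S2Ba replicate 1, the library with the high fat markers, left 101 genes called, and leaving out S2Ba replicate 4 gave 326. The sample titles number each strain's samples in 2 runs of 3 that the strains do not share, and what a run stands for is not stated, so run and strain cannot be told apart.

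Chromosome 2, which carries the BN pieces of both strains, had the highest share of genes called. By symbol, 12232 of the tested genes (91.4%) and 133 of the called genes (89.9%) could be placed on a chromosome of the RefSeq GRCr8 assembly. Of 808 chromosome 2 genes tested, 41 were called (5.07%), 20 higher in S2Ba (2.48%) and 21 lower (2.6%). On the other chromosomes together 92 of 11424 genes were called (0.805%), 47 higher (0.411%) and 45 lower (0.394%), and the share on any 1 of these 20 chromosomes lay between 0% (chromosomes 17 and 19) and 1.63% (chromosome 11). Among the 1157 genes with no chromosome assigned, 15 were called (1.3%). Chromosome 2 genes also made up 15 (1.86% of those tested there) of the 43 called genes that differed at least 2-fold, and the other chromosomes 21 (0.184%). Regardless of the test, all S2Ba libraries lay to 1 side of all S2Bb libraries for 52 chromosome 2 genes (6.44%) and for 209 genes of other chromosomes (1.83%).

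**Figure D1:**
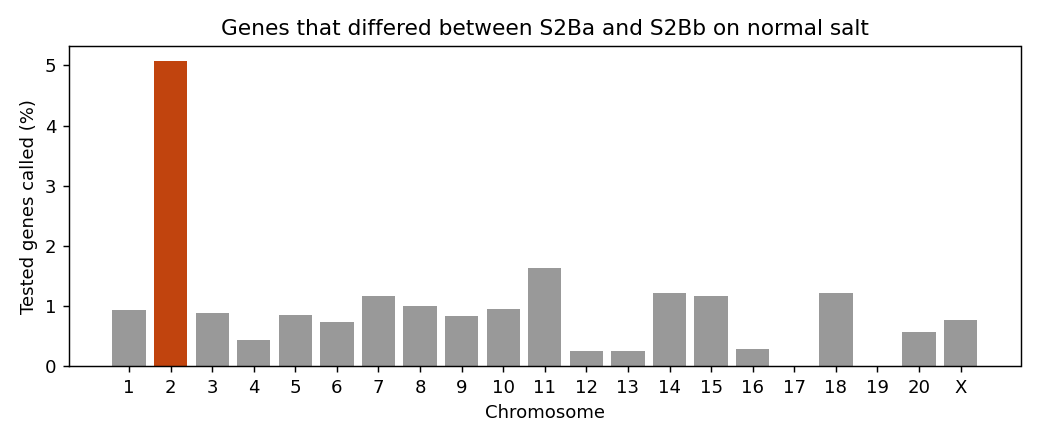
Share of tested genes called (%, y axis) on each chromosome (x axis) for S2Ba against S2Bb on normal salt, with 1 bar per chromosome and chromosome 2 in red. The chromosome 2 bar stands at 5.07%, and none of the other bars is above 1.63%.

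The called genes were unevenly placed along chromosome 2. With its 808 tested genes put in order of their start and cut into 10 stretches of about equal gene number, the first 3 stretches held 2 called genes of 242 (0.826%), and stretches 4 to 10 held 39 of 566 (6.89%). The boundary after stretch 3 was not set in advance and was not tested. The counts from stretch 4 to stretch 10 were 5, 7, 4, 2, 7, 7 and 7. Both directions were mixed here, with 4 to 6 called genes lower in S2Ba and 1 to 3 higher in each of the last 3 stretches. The first called gene was Itga1, at rank 131, the next Agtr1b at rank 241 and Nlgn1 at rank 243, and the last was Ddah1 at rank 765. Genes stood side by side with opposite changes: Vom2r44 (rank 352) was higher in S2Ba and Kcnab1 (rank 353) lower, Ptgfrn (576) was higher and Igsf3 (577) lower, and the run Trmt10a, Adh7, Adh6 and Adh5 (ranks 737 to 740) went higher, lower, higher and lower. Lxn and Rarres1, at ranks 359 and 360, were both higher in S2Ba.

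**Figure D2:**
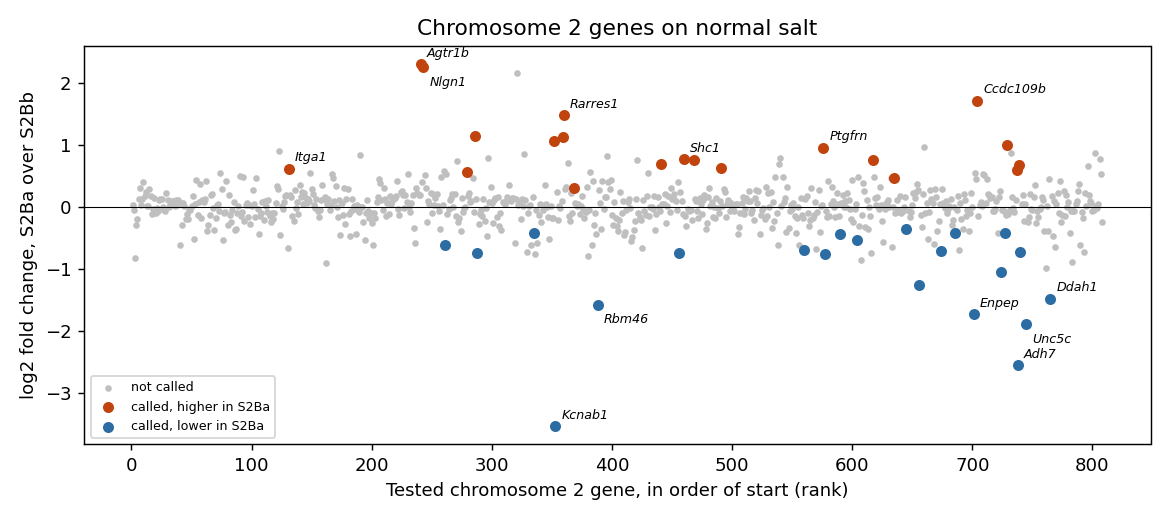
Log2 fold change, S2Ba over S2Bb, on normal salt (y axis) of the 808 tested chromosome 2 genes in the order of their start in GRCr8 (x axis, rank), with genes called higher in S2Ba in red, called lower in blue and not called in grey. Called genes of both directions are spread from rank 241 onward, after 1 at rank 131, and Kcnab1 lies lowest.

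The 250 bases before the start, from RefSeq GRCr8, an assembly of the BN rat, are shown for 5 chromosome 2 genes. These genes were chosen because they had large differences (Kcnab1, Agtr1b and Adh7) or lie next to each other and moved together (Lxn and Rarres1). These are reference letters, not the sequences of the 2 strains. Each is written 5′ to 3′ on the gene's own strand, and capitals mark matches, on either strand, of 5 common motifs: the TATA box, spelled TATAAA; the CCAAT box, by its own letters; the GC box, spelled GGGCGG; the E-box, spelled CACGTG; and the AP-1 site, spelled TGANTCA. No match overlapped another.
Kcnab1 (chr2:151614301-151614550, plus strand): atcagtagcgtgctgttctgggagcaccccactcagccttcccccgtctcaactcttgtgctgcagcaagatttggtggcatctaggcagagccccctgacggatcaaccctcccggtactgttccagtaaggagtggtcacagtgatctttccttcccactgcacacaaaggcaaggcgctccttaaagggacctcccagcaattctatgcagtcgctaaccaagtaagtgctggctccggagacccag
Agtr1b (chr2:104849263-104849512, minus strand): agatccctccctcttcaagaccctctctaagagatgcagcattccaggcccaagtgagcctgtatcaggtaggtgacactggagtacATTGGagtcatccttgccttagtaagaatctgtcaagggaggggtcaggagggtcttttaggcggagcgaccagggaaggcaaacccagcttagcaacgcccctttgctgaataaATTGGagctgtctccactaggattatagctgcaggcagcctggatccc
Adh7 (chr2:229421875-229422124, plus strand): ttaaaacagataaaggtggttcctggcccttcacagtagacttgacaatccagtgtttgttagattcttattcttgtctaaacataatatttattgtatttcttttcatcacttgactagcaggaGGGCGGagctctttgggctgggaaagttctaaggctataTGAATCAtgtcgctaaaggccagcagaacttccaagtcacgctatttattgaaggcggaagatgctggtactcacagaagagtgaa
Lxn (chr2:154043474-154043723, minus strand): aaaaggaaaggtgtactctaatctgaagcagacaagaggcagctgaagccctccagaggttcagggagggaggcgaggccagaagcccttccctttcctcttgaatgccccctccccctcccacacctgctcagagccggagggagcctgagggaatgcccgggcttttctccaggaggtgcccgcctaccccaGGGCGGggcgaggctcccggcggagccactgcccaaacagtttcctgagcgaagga
Rarres1 (chr2:154094022-154094271, minus strand): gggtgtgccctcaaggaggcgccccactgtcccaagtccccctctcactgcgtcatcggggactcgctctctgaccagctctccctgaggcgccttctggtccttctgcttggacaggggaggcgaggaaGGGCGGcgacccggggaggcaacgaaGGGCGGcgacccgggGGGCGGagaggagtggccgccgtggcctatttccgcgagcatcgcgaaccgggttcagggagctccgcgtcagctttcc
Kcnab1 held none of the 5 motifs in this window. The Agtr1b window held 2 copies of the CCAAT box, both read from the opposite strand, a motif found in 34% of 33469 such windows. The GC box, present in 30.5% of windows, occurred once before Adh7, once before Lxn and 3 times before Rarres1. Adh7 also had 1 AP-1 match, which 6.34% of windows held. The TATA box was in 12.9% of all windows and the E-box in 5.59%, and in none of these 5. GC content was 69.2% before Rarres1 and 62.8% before Lxn, and 40.8% before Adh7.

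Of the angiotensin genes called, Agtr1b was higher in S2Ba and Enpep lower. Agtr1b encodes the second of the 2 type 1 angiotensin II receptors of rodents, the receptor class through which the peptide contracts vessels. Across libraries, Agtr1b ran from 10.9 to 19.1 in S2Ba (median 14.6), against 1.85 to 4.25 in S2Bb (median 2.48). The strains did not overlap, and the log2 fold change, S2Ba over S2Bb, was 2.303 (SE 0.18, limma adjusted p = 1.03e-05). The first type 1 receptor gene, Agtr1a, which lies on another chromosome, averaged 11.9 ± 0.877 in S2Ba and 15.8 ± 1.68 in S2Bb (SD, n = 6 each), with a limma adjusted p of 0.06098. Enpep encodes aminopeptidase A, which cleaves angiotensin II to angiotensin III, and is a gene that the study itself singled out. Its values ran from 12.5 to 23.1 in S2Ba (median 14.3), against 38.3 to 64.7 in S2Bb (median 54.03). Every S2Ba library was below every S2Bb library, with a log2 fold change of -1.72 (SE 0.16, limma adjusted p = 6.64e-05).

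Of 15 tested genes of the renin-angiotensin and endothelin list, Agtr1b was higher in S2Ba, Enpep and Ece2 were lower, and 12 did not pass the test, where 0.568% of all genes tested were called higher and 0.538% lower. The median log2 fold change of the list was -0.20, and 3 of the 15 values were positive. Ece2, a relative of the enzyme that makes endothelin, averaged 13.5 ± 1.22 in S2Ba and 18.1 ± 1.09 in S2Bb (SD, n = 6 each; limma adjusted p = 0.0338). Ece2 lost its call in 17 of 27 alternatives, among them upper quartile scaling, the fit of all 4 congenic groups and the omission of any 1 library other than S2Ba replicate 2 or 4. Ace, the angiotensin-converting enzyme, averaged 72.97 ± 7.79 in S2Ba and 80.5 ± 8.28 in S2Bb (limma adjusted p = 0.478). Hs2st1, a heparan sulfate sulfotransferase that the study also singled out, lies on chromosome 2 and averaged 24.02 ± 2.92 in S2Ba and 24.1 ± 3.01 in S2Bb. Its log2 fold change was -0.01, with a 95% interval from -0.23 to 0.22 and a limma adjusted p of 0.987. None of the 15 heparan sulfate synthesis genes tested was called.

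A potassium channel subunit gave the smallest p of all genes tested. Kcnab1 encodes Kv-beta-1, an auxiliary subunit of voltage-gated potassium channels that changes their inactivation. The lowest, median and highest values were 2.86, 4.004 and 4.48 in S2Ba, against 41.2, 49.7 and 57.8 in S2Bb. The strains were far apart, at 269 reads over the S2Ba libraries and 3946 over the S2Bb libraries, and the log2 fold change was -3.53 (SE 0.12, limma adjusted p = 2.55e-10). Kcnq3, a pore subunit of the M-type potassium channel on chromosome 7, ran from 0.485 to 4.07 in S2Ba (median 2.38), against 0 to 0.527 in S2Bb (median 0.316). It was higher in S2Ba by 1.78 on the log2 scale (SE 0.34, limma adjusted p = 0.0202), and the highest S2Bb library was above the lowest S2Ba library. These were the 2 called genes among 25 tested potassium and calcium channel genes, where 1.11% of all genes were called, and the list's median log2 fold change was 0.01. Kcna2, the Kv1.2 pore subunit on chromosome 2, was outside that list and was singled out after its values were seen. It averaged 25.1 ± 5.81 in S2Ba and 14.5 ± 2.91 in S2Bb (SD, n = 6 each; limma adjusted p = 0.0482).

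Both called genes of nitric oxide and cGMP signalling were lower in S2Ba and lie on chromosome 2. Ddah1 encodes the enzyme that breaks down asymmetric dimethylarginine, an endogenous inhibitor of nitric oxide synthase. Levels of Ddah1 were 15.1 to 39.9 in S2Ba (median 25.03), against 60.3 to 78.3 in S2Bb (median 72.2). All S2Ba libraries were below all S2Bb libraries (log2 fold change -1.48, SE 0.20, limma adjusted p = 0.00207). Pde5a, the phosphodiesterase that degrades cGMP in smooth muscle, ran from 214 to 251 in S2Ba (median 237), against 283 to 341 in S2Bb (median 317). This was a smaller difference, -0.42 on the log2 scale (SE 0.07, limma adjusted p = 0.009999), again with no overlap. The other 12 of the 14 tested genes of the list were not called, where 1.11% of all genes were, and the list's median log2 fold change was -0.10. Nos3, endothelial nitric oxide synthase, averaged 26.3 ± 8.002 in S2Ba and 25.9 ± 6.16 in S2Bb (limma adjusted p = 0.995), and Gucy1b3, a subunit of the nitric oxide receptor, 81.1 ± 9.22 in S2Ba and 98.5 ± 3.73 in S2Bb (limma adjusted p = 0.09695).

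**Figure D3:**
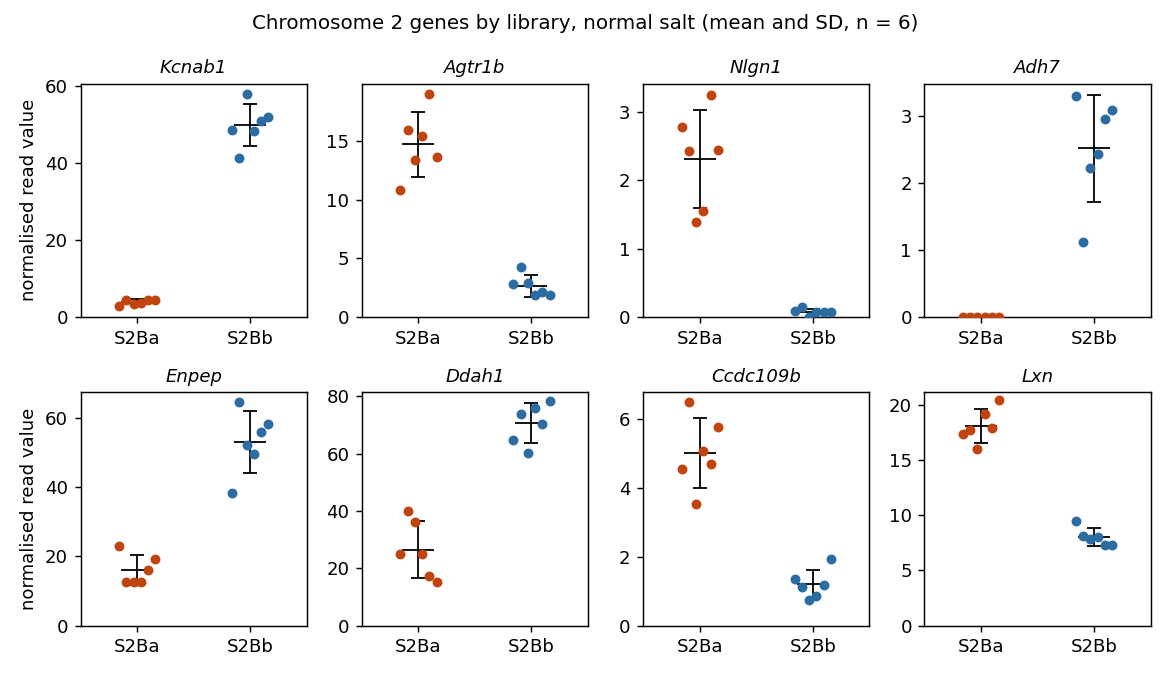
Normalised read values (y axes, from 0) of 8 chromosome 2 genes on normal salt, with 1 point per library, 6 for S2Ba in red and 6 for S2Bb in blue, and the mean and SD in black. The strains do not overlap in any of the 8 panels, and Adh7 is at 0 in all 6 S2Ba libraries.

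A cluster of alcohol dehydrogenase genes near the far end of the chromosome alternated in direction. Adh7 encodes the class IV enzyme, which oxidises retinol and ethanol. No S2Ba library held a read of it, 0 in all 6, and the 6 S2Bb libraries held 200, where values ran from 1.12 to 3.305 with a median of 2.696. Against a floor of 3 reads over the whole S2Ba group, which covers counting error only, Adh7 was at least 57.3-fold lower in S2Ba (limma adjusted p = 1.03e-05). Adh6 and Adh5 follow it on the chromosome and were singled out after their values were seen. Adh6 averaged 27.8 ± 5.43 in S2Ba and 17.04 ± 2.24 in S2Bb (limma adjusted p = 0.0173). For Adh5, the class III enzyme, which acts on formaldehyde and nitrosoglutathione, the averages were 16.7 ± 3.27 in S2Ba and 27.5 ± 3.83 in S2Bb (limma adjusted p = 0.0181). Trmt10a, a tRNA methyltransferase gene just before them, averaged 10.2 ± 1.58 in S2Ba and 6.55 ± 0.707 in S2Bb (limma adjusted p = 0.0258). How reads shared between related Adh genes were counted is not given in the sources used here.

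Ccdc109b, also on chromosome 2, encodes an inhibitory subunit of the mitochondrial calcium uniporter. Its levels were 3.54 to 6.501 in S2Ba (median 4.89), against 0.742 to 1.93 in S2Bb (median 1.15). It was higher in every S2Ba library (log2 fold change 1.71, SE 0.18, limma adjusted p = 0.000185). Slc9b1, a sodium-proton exchanger, ran from 1.46 to 1.95 in S2Ba (median 1.66), against 2.57 to 4.998 in S2Bb (median 4.27). It was lower in every S2Ba library (log2 fold change -1.05, limma adjusted p = 0.00391), and Slc9b1 was the only called gene of 17 tested for sodium transport and mineralocorticoid response, against 1.11% of all genes. Of 2 neighbours singled out after their values were seen, Slc39a8, a zinc and manganese importer, averaged 8.304 ± 1.09 in S2Ba and 3.98 ± 1.02 in S2Bb (limma adjusted p = 0.00642), and Manba, the lysosomal beta-mannosidase, 23 ± 1.66 in S2Ba and 30.8 ± 3.21 in S2Bb (limma adjusted p = 0.0329). Unc5c, a netrin receptor, ran from 3.99 to 30.6 in S2Ba (median 7.35), against 15.9 to 73 in S2Bb (median 34). Its S2Ba maximum came from replicate 2, the other S2Ba libraries reached 11.2, and the strains overlapped (log2 fold change -1.89, SE 0.41, limma adjusted p = 0.0402).

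Latexin and its neighbour were higher in S2Ba. Lxn encodes latexin, an inhibitor of carboxypeptidases, and Rarres1 a related protein named for its response to retinoic acid. Lxn ran from 16.01 to 20.4 in S2Ba (median 17.8), against 7.32 to 9.51 in S2Bb (median 7.93). For Rarres1 the values were 4.17 to 8.71 in S2Ba (median 6.95), against 1.31 to 2.66 in S2Bb (median 2.11). Neither gene overlapped between strains. The log2 fold change was 1.12 for Lxn (SE 0.09, limma adjusted p = 1.54e-05) and 1.47 for Rarres1 (SE 0.18, limma adjusted p = 0.000767).

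Nlgn1 encodes neuroligin 1, a cell adhesion protein best known from synapses, and had 160 reads in S2Ba against 6 in S2Bb. Values were 1.39 to 3.25 in S2Ba (median 2.43), against 0 to 0.149 in S2Bb (median 0.0756), and the log2 fold change was 2.25 (SE 0.19, limma adjusted p = 1.54e-05). Itga1, the alpha subunit of a collagen-binding integrin of smooth muscle, averaged 139 ± 12.5 in S2Ba and 90.4 ± 9.59 in S2Bb (SD, n = 6 each; limma adjusted p = 0.00209). Shc1, an adaptor downstream of receptor tyrosine kinases, ran from 128 to 178 in S2Ba (median 133), against 75.4 to 97.8 in S2Bb (median 79.9). Both genes were higher in every S2Ba library, and the log2 fold change of Shc1 was 0.77 (SE 0.09, limma adjusted p = 0.000825). Ptgfrn, an immunoglobulin-type membrane protein that interferes with prostaglandin F2 binding to its receptor, averaged 149.6 ± 30.05 in S2Ba and 76.4 ± 11.97 in S2Bb (limma adjusted p = 0.00383). Its neighbour Igsf3, of the same protein family and singled out after its values were seen, averaged 7.902 ± 1.75 in S2Ba and 13.7 ± 2.55 in S2Bb (limma adjusted p = 0.02302).

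Olfml3, a secreted olfactomedin-like protein, ran from 46.5 to 57.2 in S2Ba (median 47.96), against 64.5 to 72.1 in S2Bb (median 67.2). It was lower in every S2Ba library (limma adjusted p = 0.00628). In S2Bb replicate 2, Itga1 stood above the other 5 S2Bb libraries and Sort1 below them. A further 9 chromosome 2 genes were singled out after their values were seen. Il6r, the interleukin 6 receptor, averaged 21.8 ± 4.25 in S2Ba and 12.6 ± 1.39 in S2Bb, and S100a6, a calcium-binding protein, 361 ± 65.7 in S2Ba and 231 ± 18.9 in S2Bb. Sort1, the sorting receptor sortilin, averaged 563 ± 64.5 in S2Ba and 408 ± 49.3 in S2Bb, and Acad9, a mitochondrial dehydrogenase needed to assemble complex I, 25.5 ± 3.35 in S2Ba and 16.9 ± 1.04 in S2Bb. These 4 were higher in S2Ba, with limma adjusted p from 0.00862 (Il6r) to 0.0413 (Sort1). Sort1 lost its call in 18 of 27 alternatives, among them edgeR, TMM scaling, no filter and the omission of any 1 library other than S2Ba replicate 4 or 5. Adam15, a membrane metalloprotease, averaged 46.2 ± 10.7 in S2Ba and 75.7 ± 3.78 in S2Bb, Mecom, a zinc finger transcription factor, 128 ± 30.9 in S2Ba and 191 ± 11.9 in S2Bb, and Bbs12, a ciliary chaperonin-like protein, 4.99 ± 1.53 in S2Ba and 8.47 ± 0.964 in S2Bb. Rbm46, an RNA-binding protein, had 6 reads in S2Ba, all in replicate 1, and 99 in S2Bb. These 4 were lower in S2Ba, with limma adjusted p from 0.00626 (Rbm46) to 0.04499 (Bbs12). Vom2r44, a vomeronasal receptor gene beside Kcnab1, averaged 5.35 ± 1.76 in S2Ba and 2.25 ± 0.673 in S2Bb (limma adjusted p = 0.0301).

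Away from chromosome 2 the smallest adjusted p among genes with an informative symbol belonged to Meis1 on chromosome 14, which encodes a homeobox factor. The lowest, median and highest values were 115, 129 and 158 in S2Ba, against 65.4, 75.5 and 82.03 in S2Bb. Every S2Ba library was above every S2Bb library (log2 fold change 0.84, SE 0.09, limma adjusted p = 0.000176). Spp1, on the same chromosome, encodes osteopontin, a matrix protein and cytokine that smooth muscle cells and macrophages make. Its values ran from 808 to 1188 in S2Ba (median 890.3), against 391 to 653 in S2Bb (median 535). The groups did not overlap (log2 fold change 0.81, limma adjusted p = 0.00494), while the 19 tested macrophage markers, none of them called, summed to 469.1 to 749.9 in S2Ba and 495.6 to 619.1 in S2Bb. Spp1 and Fbln1, the matrix protein fibulin 1, which averaged 153 ± 24.2 in S2Ba and 217 ± 21.1 in S2Bb (limma adjusted p = 0.0338), were the 2 called genes of 37 tested for extracellular matrix, in opposite directions, where 1.11% of all genes were called. That list had a median log2 fold change of -0.14.

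Sult1d1, a sulfotransferase on chromosome 14, ran from 3.204 to 5.73 in S2Ba (median 4.19), against 9.15 to 13.6 in S2Bb (median 10.3). Slc6a4, the serotonin transporter, on chromosome 10, ran from 8.96 to 20.9 in S2Ba (median 14.4), against 26.1 to 40.7 in S2Bb (median 32.9). Both were lower in every S2Ba library, and the log2 fold change was -1.27 for Sult1d1 (limma adjusted p = 0.000545) and -1.21 for Slc6a4 (limma adjusted p = 0.00626). Bmp5, a bone morphogenetic protein, had levels of 2.21 to 5.22 in S2Ba (median 2.91), against 0.618 to 1.182 in S2Bb (median 0.736), and its limma adjusted p was 0.00171. Cap1, a regulator of actin turnover, averaged 423 ± 62.7 in S2Ba and 261 ± 26.3 in S2Bb (limma adjusted p = 0.00391). Both Hnrnpa1 and Foxp2 were lower in S2Ba. Hnrnpa1, an RNA-binding protein with many processed copies in the genome, averaged 31.5 ± 7.299 in S2Ba and 61.03 ± 9.57 in S2Bb (limma adjusted p = 0.00566), and Foxp2, a forkhead transcription factor, 59.4 ± 4.72 in S2Ba and 81.1 ± 5.63 in S2Bb (limma adjusted p = 0.00945). How reads of Hnrnpa1 and its copies were divided is not given in the sources used here.

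Among genes of muscle calcium handling and oxidant defence, few passed the test. Pln, phospholamban, which restrains calcium uptake into the sarcoplasmic reticulum, ran from 212 to 534 in S2Ba (median 317), against 149 to 226 in S2Bb (median 186). Against 1.11% of all genes, it was the only called gene of 22 smooth muscle contractile genes (limma adjusted p = 0.0388), and its strains overlapped. The cardiac muscle markers summed to higher levels in S2Ba in the same libraries, as given above. Only 4 of those 13 markers were tested, none was called, and 3 of the 4 had a positive log2 fold change. Their part in the Pln values was not tested. The calcium pump that phospholamban acts on, encoded by Atp2a2, averaged 799 ± 95.3 in S2Ba and 1052 ± 153 in S2Bb (limma adjusted p = 0.0919). Sod1, cytosolic superoxide dismutase, was the only called gene of 24 oxidant and antioxidant genes (1.11% of all genes were called), at 65.6 to 80.1 in S2Ba (median 72.3), against 89.4 to 97.6 in S2Bb (median 91.2). It was lower in every S2Ba library, by a small amount (-0.35 on the log2 scale, SE 0.07, limma adjusted p = 0.0207). Blk, a kinase of B cells, had 38 reads in S2Ba and 212 in S2Bb (limma adjusted p = 0.0202). Of the 9 B and plasma cell markers listed, 2 reached the mean of 0.5, and the whole list summed to 1.45 to 3.09 in S2Ba and 3.22 to 5.56 in S2Bb. That sum includes Blk itself, which ran from 0 to 1.26 in S2Ba and from 1.24 to 4.02 in S2Bb. The sum is therefore no separate measure of B cells.

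Genes of the circadian clock varied between libraries. Dbp, a clock-driven transcription factor, and Nr1d2, the nuclear receptor REV-ERB-beta, both accumulate at a given time of day. For Dbp the values were 5.29 to 8.93 in S2Ba (median 6.88), against 8.87 to 23.6 in S2Bb (median 18.5). For Nr1d2 the values were 23.4 to 37.8 in S2Ba (median 29.4), against 38.7 to 78.7 in S2Bb (median 66.4). The lowest S2Bb value of Dbp lay below the highest S2Ba value, and Nr1d2 did not overlap. The log2 fold change was -1.25 for Dbp (limma adjusted p = 0.00945) and -1.02 for Nr1d2 (limma adjusted p = 0.009999). These were the 2 called genes of 17 tested for the clock, where 1.11% of all genes were called, and the list median was -0.29. Both lost their call in the fit of all 4 congenic groups, with the clock component, and without S2Ba replicates 4 to 6 or S2Bb replicates 4 to 6. The clock component is drawn from the clock genes, to which Dbp and Nr1d2 belong, so the fit with it is no separate check of these 2. Nr1d1, the paralogue of Nr1d2, averaged 20.2 ± 19.99 in S2Ba and 42.96 ± 11.9 in S2Bb (limma adjusted p = 0.112), Per3, a period gene, 16.04 ± 4.39 in S2Ba and 27.2 ± 7.36 in S2Bb (limma adjusted p = 0.0961), and Arntl, the clock activator BMAL1, 77.1 ± 6.72 in S2Ba and 66.4 ± 6.91 in S2Bb (limma adjusted p = 0.238). Neither Dbp nor Nr1d2 was called on high salt, where both spread widely within each strain. Dbp ran there from 2.53 to 30.2 in S2Ba and from 2.83 to 213 in S2Bb. Nr1d2 ran from 13.9 to 79.7 in S2Ba and from 18.97 to 187 in S2Bb. The log2 fold change there was -0.71 for Dbp (limma adjusted p = 0.8375) and -0.38 for Nr1d2 (limma adjusted p = 0.854). Sampling times are not given in the labels, and their part in the result was not tested.

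**Figure D4:**
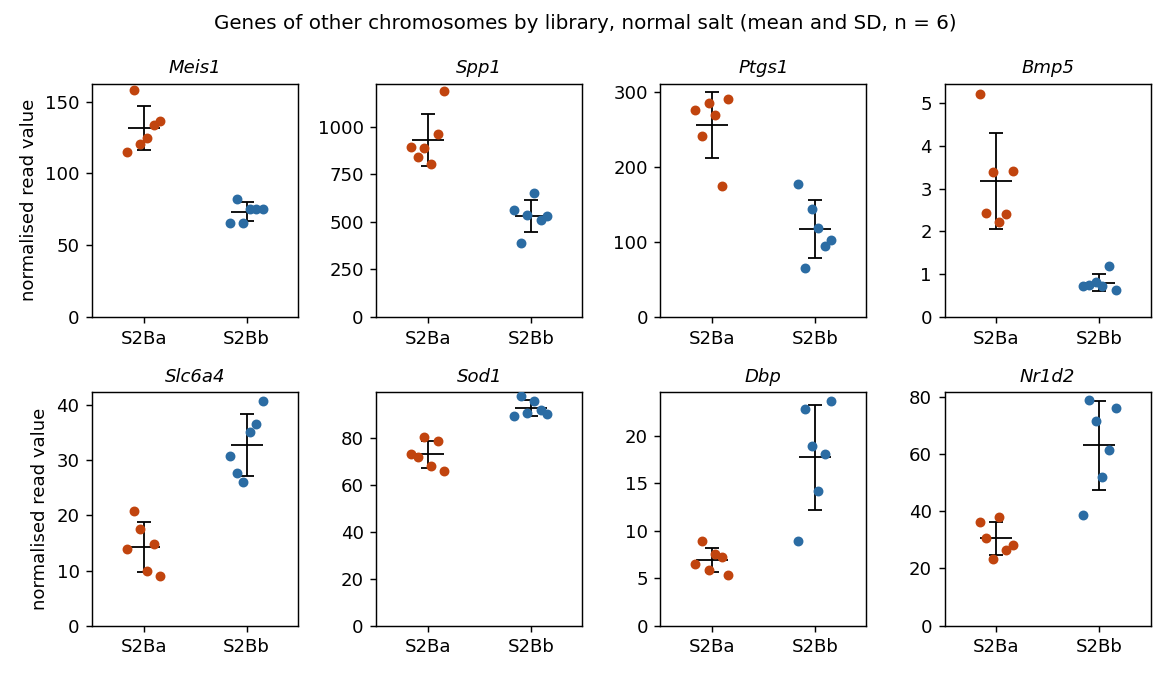
Normalised read values (y axes, from 0) of 8 genes outside chromosome 2 on normal salt, with 1 point per library, 6 for S2Ba in red and 6 for S2Bb in blue, and the mean and SD in black. Meis1, Spp1, Bmp5, Slc6a4, Sod1 and Nr1d2 do not overlap between strains, and Ptgs1 and Dbp each overlap.

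A further 15 genes outside chromosome 2 or without a chromosome were singled out after their values were seen. Ptgs1, cyclooxygenase 1, which makes the precursor of prostacyclin and thromboxane, ran from 174 to 289.8 in S2Ba (median 272), against 65.8 to 177 in S2Bb (median 110.1) (limma adjusted p = 0.0107). Avpr1a, the vasopressin V1a receptor of smooth muscle, averaged 10.1 ± 1.097 in S2Ba and 5.96 ± 0.922 in S2Bb (limma adjusted p = 0.009999). Nt5e, the enzyme CD73 that makes adenosine, averaged 35.02 ± 8.73 in S2Ba and 19.02 ± 4.46 in S2Bb, Serpine2, a protease inhibitor of the vessel wall, 528 ± 96.9 in S2Ba and 349 ± 47.9 in S2Bb, and Fgf1, a fibroblast growth factor, 74.3 ± 19.9 in S2Ba and 37.5 ± 8.44 in S2Bb. These 5 genes were higher in S2Ba, and so were Tnfrsf21, a death receptor (11.7 ± 2.197 in S2Ba and 5.45 ± 1.28 in S2Bb), Txn2, mitochondrial thioredoxin (46.9 ± 10.8 in S2Ba and 27.2 ± 3.15 in S2Bb), Trdn, triadin of the calcium release complex (50.3 ± 12.7 in S2Ba and 28.9 ± 6.99 in S2Bb), and Sost, the Wnt antagonist sclerostin, with limma adjusted p between 0.00818 and 0.0413. Sost was low, at 1.54 to 3.105 in S2Ba (median 2.04), against 0 to 1.58 in S2Bb (median 0.543), with overlap. Lower in S2Ba were Fap, a fibroblast surface protease (20.5 ± 2.67 in S2Ba and 31.1 ± 3.56 in S2Bb), Tbx18, a T-box factor of mural cells (21.4 ± 3.01 in S2Ba and 37.3 ± 7.91 in S2Bb), Klf11, a Krüppel-like factor (13.7 ± 1.32 in S2Ba and 22.5 ± 4.36 in S2Bb), Socs1, a suppressor of cytokine signalling (1.87 ± 0.275 in S2Ba and 3.44 ± 0.606 in S2Bb), and Cox17, a copper chaperone of cytochrome oxidase (5.24 ± 2.52 in S2Ba and 11.3 ± 1.53 in S2Bb), with limma adjusted p between 0.0141 and 0.0329. Mt-nd2, a mitochondrial complex I subunit, ran from 232 to 737 in S2Ba (median 421), against 673 to 1649.5 in S2Bb (median 1056) (limma adjusted p = 0.0362). All genes with an Mt- symbol together took 1.47 to 2.7% of the reads of S2Ba libraries and 1.61 to 2.69% of those of S2Bb. The gene entry with the most reads, which has no Mt- symbol, took 15.3 to 22.5% in S2Ba and 14.1 to 19.1% in S2Bb. None of the 25 oxidative phosphorylation genes tested was called, but that list holds nuclear genes only.

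On the log2(value + 0.5) scale, which understates low genes such as Adh7, the largest fold change of any called gene belonged to a transcript with no informative symbol, AABR07012585.3, which could not be placed on a chromosome. It ran from 0.0693 to 1.43 in S2Ba (median 0.49), against 28.1 to 40.5 in S2Bb (median 33.7), a log2 fold change of -5.04 (SE 0.22, limma adjusted p = 7.65e-09). AABR07043421.1, likewise unplaced, ran from 30.2 to 43.7 in S2Ba (median 39.1), against 17.2 to 21.4 in S2Bb (median 19.6) (limma adjusted p = 0.000122).

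Lists with no called gene included inflammatory mediators and adhesion (20 tested), immediate early genes (19), glucocorticoid response (15 entries under at most 14 symbols), interferon response (23), antigen presentation (16), and the markers of endothelium (14), fibroblasts (11), macrophages (19) and lymphatic endothelium (6). For inflammation the median log2 fold change was 0.10, and 12 of 20 values were positive. Vcam1, an adhesion molecule for leukocytes, averaged 178 ± 47.8 in S2Ba and 144 ± 24.7 in S2Bb (limma adjusted p = 0.489), and Icam1, another, 28.6 ± 2.396 in S2Ba and 32.4 ± 2.31 in S2Bb (limma adjusted p = 0.309). Of 21 cell cycle genes none was called, although 19 had a positive log2 fold change, with a median of 0.34. Summed, this list came to 175.9 in S2Ba replicate 6, 101.8 to 112.8 in the other 5 S2Ba libraries and 86.4 to 114.6 in S2Bb. Without S2Ba replicate 6, 16 of the 21 values were positive, with a median of 0.29. Over all 13389 genes the median was -0.000663.

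The same strains were also compared on high salt in other libraries, 5 of S2Ba and 6 of S2Bb, with none shared between the diets. There 42 of 13360 genes were called (0.314%), 24 higher in S2Ba (0.18%) and 18 lower (0.135%), and 24 of the 42 lay on chromosome 2. Of the 148 genes called on normal salt, 144 were tested on high salt, 114 (79.2%) had the same sign and 20 (13.9%) were called with the same sign. Among all 13132 genes tested on both diets, 59.5% had the same sign and 0.267% were called on high salt with the sign of normal salt.

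Chromosome 2 genes and the others differed in this second look. Of the 41 chromosome 2 genes, 39 (95.1%) had the same sign on high salt and 15 (36.6%) were called there, and the median size of their log2 fold change came to 0.57 there, against 0.75 on normal salt. Of 89 called genes of other chromosomes, 64 (71.9%) had the same sign and 1 (1.12%) was called, with median sizes of 0.25 there and 0.70 on normal salt. That 1 gene was Meis1. Meis1 averaged 100.3 ± 9.94 in S2Ba and 66.6 ± 4.94 in S2Bb on high salt, a log2 fold change of 0.58 (limma adjusted p = 0.00509). Of 14 unplaced genes called on normal salt, 11 (78.6%) had the same sign on high salt and 4 (28.6%) were called there. They included AABR07012585.3 (log2 fold change -6.15, limma adjusted p = 8.95e-12) and AABR07043421.1 (1.07, limma adjusted p = 9.29e-07). No test was made of the difference between these groups of genes. All were selected by their normal salt p-values, which by itself makes sizes larger there, on average, than in other libraries. The smaller sizes on high salt are therefore no measure of the diet.

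On high salt Kcnab1 averaged 2.78 ± 1.24 in S2Ba and 43.99 ± 9.997 in S2Bb, with a log2 fold change of -3.80 (limma adjusted p = 5.38e-07). Agtr1b averaged 21.2 ± 4.24 in S2Ba and 2.62 ± 0.679 in S2Bb, a log2 fold change of 2.81 (limma adjusted p = 9.29e-07). In both genes every S2Ba library lay on the same side of every S2Bb library as on normal salt. Nlgn1 (2.59), Adh7 (-2.21), Ccdc109b (1.51), Slc9b1 (-1.21), Ddah1 (-1.19), Ptgfrn (0.76), Shc1 (0.60) and Slc39a8 (0.88) were also called there, on the log2 scale given, with limma adjusted p between 3.88e-05 (Nlgn1) and 0.0425 (Ddah1 and Slc39a8). Adh7 was not at 0 throughout in S2Ba on high salt, where it averaged 0.0673 ± 0.0923 (highest library 0.175), against 2.33 ± 1.33 in S2Bb. Enpep averaged 54.3 ± 19.03 in S2Ba and 93.1 ± 57.4 in S2Bb on high salt and was not called, with a log2 fold change of -0.68 (limma adjusted p = 0.423). Lxn was not called either (33.4 ± 9.42 in S2Ba and 17.5 ± 4.59 in S2Bb, log2 fold change 0.90, limma adjusted p = 0.104). Outside chromosome 2, Spp1 averaged 2648 ± 1279 in S2Ba and 1555 ± 1105 in S2Bb on high salt, a log2 fold change of 0.86 (limma adjusted p = 0.436), Bmp5 had a log2 fold change of 0.18 and Cap1 of 0.04.

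A fit over all 4 congenic groups tested the difference of the strain contrast between diets. Of 13397 genes 1 was called (0.00746%), and 1084 had an unadjusted p under 0.05. The called gene was 5S_rRNA, a gene with many near-identical copies, so its value is uncertain. It averaged 28.9 in S2Ba and 11.1 in S2Bb on normal salt, and 15.2 in S2Ba and 37.6 in S2Bb on high salt (limma adjusted p = 0.00966), and was singled out after its values were seen. For Enpep the difference between the diets' log2 fold changes, normal minus high salt, was -1.04 (unadjusted p = 0.009025, limma adjusted p = 0.412).

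**Figure D5:**
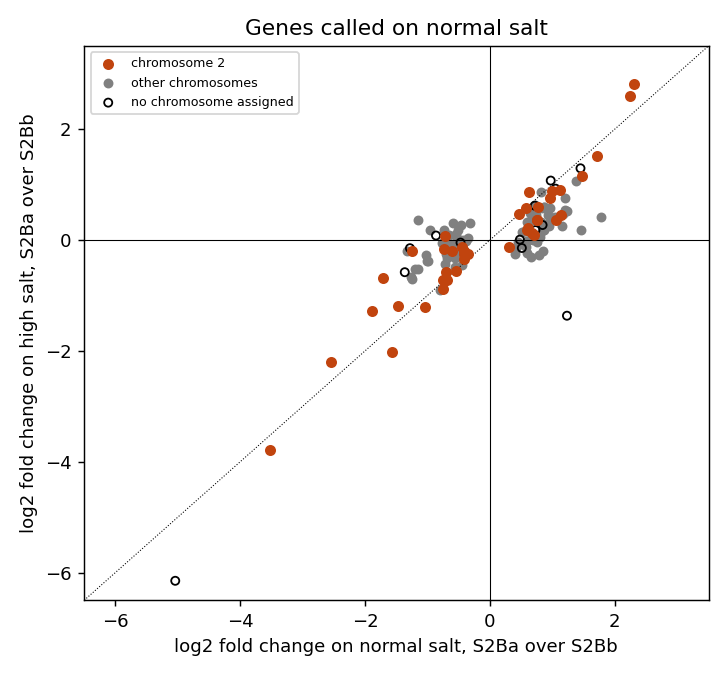
Log2 fold change, S2Ba over S2Bb, on normal salt (x axis) and on high salt (y axis) of the 144 genes called on normal salt and tested on both diets, with chromosome 2 genes in red, genes of other chromosomes in grey and unplaced genes as open circles. The dotted line marks equal values, 39 of 41 chromosome 2 genes have the same sign on both axes, and so do 64 of 89 genes of other chromosomes.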

How the data were processed

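Total RNA libraries of thoracic aorta were sequenced, and the submitters' processing notes name STAR 2.3.1, edgeR 3.6.8, R 3.2.3, bcl2fastq 1.8.4 and FastQC. Not given in the sources used here are the genome build, annotation, counter and strand setting. The authors deposited 1 signal value per gene and library. In the congenic libraries 100% of the values were whole multiples of 1 read (tolerance 0.01 reads), so each signal value is a read count over the size factor of its library. Of 26106 genes, 13389 had a mean of at least 0.5 over the 12 libraries. Counts had been foreseen, and since the values are normalised, limma 3.58.1 with a trend (R 4.3.3) was fitted to log2(value + 0.5), which understates the change of low genes. Tests were 2-sided, with Benjamini-Hochberg adjustment over all genes tested and calls under 0.05. On simulated data with the same means the fit was tested first. Those data had the same dispersion for all genes and no runs or clock differences between libraries. They therefore do not show how the fit behaves with such differences. Replicates were numbered by record order. Libraries of a strain differed by more than sampling noise. Alternatives were edgeR 4.0.16 and DESeq2 1.42.0 on the recovered reads, other scaling, pseudocounts and filters, a fit of all 4 congenic groups, surrogate variables (sva 3.50.0), the clock component and left-out libraries. Chromosome and gene order came from RefSeq GRCr8, matched by symbol, and only for names and order, since the build of the files is unknown. Promoter windows came from the same assembly.

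Genes were named by rule, from those with a mean of 1 or more: per direction, the 12 calls with informative symbols whose adjusted p was smallest; on chromosome 2, the 10 calls of largest fold change; and, whatever the mean, at most 4 calls per list, Enpep and Hs2st1, and called genes with 0 reads in a whole group. Some genes that the rule selects are not reported here. Others are said to have been singled out after their values were seen. The comparison, members and lists were chosen with earlier results of these data known.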

Additional observations from a re-analysis of the deposited data

Results flagged for a closer look

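Among the 132 groups of 6 libraries of the named genes, 6 held a library that stood apart from the other 5 by Dixon's criterion, and chance flags about 1 in 20 groups. In S2Ba, Unc5c was 30.56 in replicate 2, against 3.99 to 11.16 in the others, and Rbm46 was 0.5052 in replicate 1 and 0 in the others. In S2Bb replicate 2, Itga1 was 109.1 (others 81.89 to 90.62) and Sort1 was 311 (others 400.9 to 440.5). Lxn was 9.512 in S2Bb replicate 1 (others 7.315 to 8.136), and Bmp5 was 1.182 in S2Bb replicate 5 (others 0.618 to 0.8245). The cause was not tested. Of the 4 genes flagged in S2Bb, none overlapped the S2Ba libraries.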

How the results depend on the processing

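On normal salt the 148 calls became 539 with DESeq2, 269 with all 4 congenic groups in the fit, 583 with surrogate variables (253 higher, 330 lower) and 16 with the clock component. Leaving out S2Ba replicates 1 to 3 (the first run of title numbers) gave 173, S2Ba replicates 4 to 6 (the second run) gave 57, S2Bb replicates 1 to 3 gave 37 and S2Bb replicates 4 to 6 gave 12, each with 3 libraries left in a strain. The 41 chromosome 2 calls became 86 with DESeq2, 86 with surrogate variables and 8 with the clock component, and 36, 19, 15 and 8 without those same runs. Leaving out 1 library at a time gave 75 (without S2Bb replicate 6) to 326 (without S2Ba replicate 4) calls in all, 25 (without S2Ba replicate 6) to 57 (without S2Ba replicate 4) on chromosome 2, and 12 to 102 on high salt, against 42. On high salt these counts were 12 without S2Bb replicate 4 or 5, 13, 26, 18 and 18 without S2Ba replicate 1, 3, 4 or 6, 23 and 24 without S2Bb replicate 2 or 6, and 102 without S2Bb replicate 1. The count on normal salt also moved by over 1.5 times without S2Ba replicate 2 (261) or 6 (76) and S2Bb replicate 3 (93) or 5 (78), and that on chromosome 2 without S2Bb replicate 3 (27). Other scaling, pseudocounts, filters and edgeR on the recovered reads gave 103 to 153 calls, 32 to 43 of them on chromosome 2. The cause was not tested. Of the 66 named genes 65 were called on normal salt. None of those 65 changed direction under any alternative that tested it, while Hs2st1, called in none, ran from -0.05 to 0.06 on the log2 scale. A filter at a mean of at least 2 left 59 of the 66, and 10 genes were called in every alternative that tested them: Kcnab1, Adh7, Agtr1b, Lxn, Nlgn1, Enpep, Meis1, Ccdc109b and the 2 unplaced transcripts. With the clock component 53 lost their call, with no filter 16, with edgeR 6, and with 1 library left out between 0 (S2Ba replicate 4) and 24 (S2Ba replicate 6). At least 14 of the 26 or 27 alternatives that tested them ended the call of 10 genes: Nt5e, Cox17, Ece2, Sost, Mecom, Pln, Unc5c, Sort1, Bbs12 and Kcna2. Low counts limit Adh7, Nlgn1, Rbm46 and Blk. No paired analysis was possible because no label pairs S2Ba with S2Bb samples and replicates were numbered by record order only.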
